A study of Mus musculus with 4 samples.

Results

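Smooth muscle surrounds the airways and the blood vessels of the fetal lung, and its contractile genes were followed here in whole-lung RNA from mouse embryos at E16.5. The set was taken from the table by symbol and consisted of 9 genes of the contractile apparatus and cytoskeleton (Acta2, Actg2, Myh11, Tagln, Cnn1, Smtn, Synpo2, Lmod1 and Des) and of Myocd, which encodes the transcriptional co-activator myocardin. All 10 were among the 22556 genes of the deposited table. There were 2 Control libraries, from embryos with the genotype Shh-Cre; Stk11F/+, and 2 Shh-Stk11 libraries, from embryos with the genotype Shh-Cre; Stk11F/F. The strain label is C57BL/6, but mixed backgrounds are given in the methods. Both genotypes carried the Cre driver, and the Controls had lost 1 copy of the floxed gene in the same cells. The driver is active in endoderm, from which the epithelium of the lung derives. Smooth muscle derives from the mesenchyme, outside that lineage.

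In smooth muscle cells, actin filaments built from the ACTA2 and ACTG2 actins slide along filaments of the myosin heavy chain MYH11. Transgelin, calponin, smoothelin, synaptopodin 2 and leiomodin bind or organize the actin filaments, and desmin forms the intermediate filaments that tie the apparatus together. Serum response factor (SRF) binds CArG boxes near many of these genes and, together with myocardin, switches them on. Airway smooth muscle forms next to the epithelium from mesenchyme that receives Sonic hedgehog and BMP signals, whereas vascular smooth muscle forms around the endothelium. A lysate of a whole lung does not separate these types.

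As a check of the labels, Stk11 was at 44.0 and 45.5 FPKM (reads scaled to transcript length and to mapped reads) in the Controls, and at 29.5 and 26.0 FPKM in the Shh-Stk11 libraries (log2 fold change -0.69, SE 0.13, limma adjusted p = 0.0499). It passed the threshold in 3 of 15 alternatives, and in none that left out a library, where the adjusted p was between 0.113 and 0.183. The Y-linked gene Ddx3y reached 23.5 FPKM in Shh-Stk11 2 but did not exceed 0.0285 FPKM elsewhere, so the genotypes were not matched for sex. The spacing of the lowest values corresponded to an estimated 30.7 to 37.9 M reads per library. Of the 13770 genes tested, with a mean of at least 0.5 FPKM, 2.27% passed the threshold of an adjusted p of 0.05 in limma. The methods describe independent biological replicates, and whether lungs were pooled is not given in the sources used here.

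Because the deposited values count 50-base reads, and actins and myosins belong to families of similar genes, it was asked how far such reads could be confused. Every 50-base window of the longest coding transcript of each gene was looked up, on both strands, in the GENCODE M21 transcripts (GRCm38) of all other genes. Only exact matches were counted, so reads aligned with mismatches are not covered. Not 1 window of Actg2 was shared. Acta2 shared 7 of its 1986 windows, with the cytoplasmic actin gene Actg1 and at least 3 other loci. Acta2 and Actg2 shared none with each other. The longest identical stretch of their coding sequences, shown because it marks the closest approach of the pair, had 29 bases and lay at coding bases 637 to 665 of Acta2 and 634 to 662 of Actg2.
Acta2 and Actg2: gacatcaaggagaagctgtgctatgtagc
Myh11 shared 26 of its 6500 windows, with the non-muscle myosin genes Myh9 and Myh10. Cnn1 and Lmod1 shared none, Synpo2 shared 5 and Myocd 1. For other members the overlap was with genes on the opposite strand. Tagln shared 48.3% of its windows, most of them with the antisense gene Gm48529, Smtn 13.2% with Gm11946, and Des 5.81% with Gm15179. Another 59 windows of Tagln were shared with Pcsk7, also on the opposite strand, which reached 11 FPKM, whereas Gm15179 did not exceed 0.207 FPKM in any library. The strandedness of the libraries was not given in the sources used here, so reads of such overlapping genes cannot be told apart.

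The promoters of the SRF targets were then inspected. RefSeq promoter windows (GRCm38.p6, from 250 bases before to 50 bases after the start site) were at hand for 6 of the 10 genes. None of these 6 held an exact CArG box, which 1.63% of all 32851 windows held. With at most 1 mismatch allowed, a criterion adopted after the exact search had been seen, 2 of the 6 held one, against 21.1% of all windows. The box reads the same on both strands, so a single search covered both. The promoter of Acta2 (chr19:34255324-34255623, minus strand) is shown because Acta2 was by far the most abundant member. Capitals mark its 2 inexact boxes, which begin 84 and 34 bases before the start site.
Acta2: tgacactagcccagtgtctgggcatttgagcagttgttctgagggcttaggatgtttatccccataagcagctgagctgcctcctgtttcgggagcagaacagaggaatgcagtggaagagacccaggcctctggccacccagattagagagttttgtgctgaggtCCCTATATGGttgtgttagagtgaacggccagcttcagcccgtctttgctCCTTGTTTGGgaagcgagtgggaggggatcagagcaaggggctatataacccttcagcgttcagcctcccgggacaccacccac
The window of Lmod1 (chr1:135324563-135324862, plus strand) held 2 inexact boxes, CTTTAAAAGG and CTAAATTTGG, which begin 189 and 164 bases before the start site. The window of Des (chr1:75360042-75360341, plus strand) held none. These matches are letters in a short window and say nothing about binding in these lungs.

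The 10 genes spanned a wide range of levels. FPKM is scaled to length, so levels of different genes can be set side by side, and the mean level of Acta2 was 248 times that of Myocd. Over the 4 libraries the mean was 302 FPKM for Acta2, 102 for Tagln, 34.3 for Actg2, 26.6 for Smtn, 20.5 for Des, 18.4 for Myh11, 5.11 for Cnn1, 2.36 for Synpo2, 2.10 for Lmod1 and 1.22 for Myocd. Acta2 lay above 98.3% of the tested genes, and Myocd above 8.37%. Of the 9 pairs of neighbours in this order, 5 were separate in all libraries. The ranges of Actg2 and Smtn, of Smtn and Des, of Des and Myh11, and of Synpo2 and Lmod1 overlapped. In estimated reads, the lowest library of each gene held between 128 (Myocd) and 15813 (Acta2), for which counting alone gives an error of 8.83% and 0.795%. These read numbers assume the longest annotated transcript and cover counting error only.

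**Figure D1:**
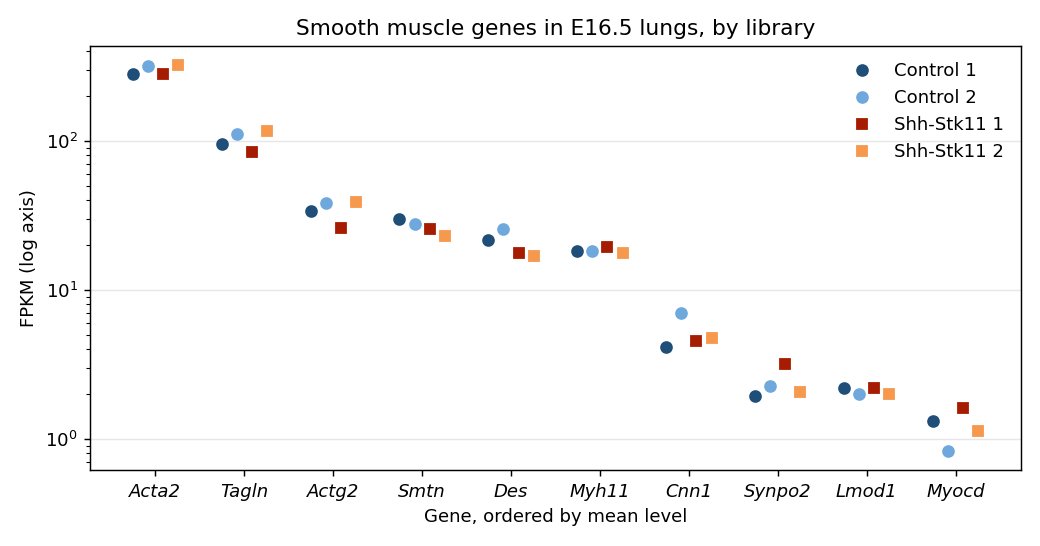
FPKM of the 10 smooth muscle genes on a log axis, with 1 point for each of the 2 Control and 2 Shh-Stk11 libraries. The genes are ordered from Acta2, at a mean of 302 FPKM, to Myocd, at 1.22 FPKM, and the points of the genotypes overlap for all genes but Smtn and Des.

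To ask whether loss of epithelial STK11 altered the smooth muscle program, each gene was compared between the genotypes. None of the 10 passed the threshold in limma, where 2.27% of all tested genes did (0.98% higher and 1.29% lower in Shh-Stk11). An unadjusted p under 0.05 was found for 1 gene (Des, lower), and for 15.2% of all tested genes (8.04% higher and 7.18% lower). The median log2 fold change of the 10, Shh-Stk11 minus Control, was -0.03, beside -0.05 over all tested genes, and the median of its size was 0.20 beside 0.17. Of the 10 genes 7 lay below 0, as did 58.3% of all tested genes. The groups overlapped for 8 genes. For Smtn and Des the groups were apart, both lower in Shh-Stk11, whereas 46.8% of all tested genes were apart (19.2% higher and 27.6% lower). In 4 genes (Acta2, Myh11, Tagln and Lmod1) the difference was under 0.1 on the log2 scale. The interval of the difference lay within 0.5 of 0 on the log2 scale for 4 genes and within 1 for 9, all but Myocd. In a whole lung, fewer smooth muscle cells and less RNA per cell cannot be told apart.

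Acta2 (ENSMUSG00000035783.9, chr19:34241090-34255590), the actin most used to mark smooth muscle and myofibroblasts, was at 282 and 321 FPKM in the Controls, against 280 and 323 FPKM in the Shh-Stk11 libraries. Each genotype had a lower and a higher library, and the means were the same, at 302 ± 27.2 and 302 ± 30.5 FPKM (SD, n = 2 libraries each). The fold was 1.0 with a 95% interval from 0.765 to 1.31 (limma adjusted p = 1.0). Actg2 (ENSMUSG00000059430.14, chr6:83512905-83536265), the actin typical of visceral smooth muscle, was at 34.0 and 38.5 FPKM in the Controls, against 26.0 and 38.8 FPKM in the Shh-Stk11 libraries. Shh-Stk11 1 alone lay apart, and the other values were close together (log2 fold change -0.19, 95% interval -0.68 to 0.30, limma adjusted p = 0.714). Leaving out Shh-Stk11 1 gave a log2 fold change of 0.10, and leaving out Shh-Stk11 2 gave -0.48. The level of Actg2 relative to Acta2 was 0.12 in both Controls and in Shh-Stk11 2, and 0.0927 in Shh-Stk11 1.

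Myh11 (ENSMUSG00000018830.10, chr16:14194535-14291372), the myosin heavy chain most restricted to differentiated smooth muscle, was at 18.4 and 18.3 FPKM in the Controls, against 19.4 and 17.6 FPKM in the Shh-Stk11 libraries. The Control values lay between those of Shh-Stk11. Its log2 fold change of 0.01 (SE 0.12) had the narrowest interval of the 10, from -0.28 to 0.30 (limma adjusted p = 0.972), and it was -0.05 after a trend with transcript length and GC content was removed. That interval corresponds to a fold between 0.824 and 1.23.

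Among the proteins that bind actin filaments, Tagln (ENSMUSG00000032085.5, chr9:45929619-45936058), which encodes transgelin, repeated the pattern of Acta2. It was at 95.1 and 111 FPKM in the Controls, against 84.7 and 116 FPKM in the Shh-Stk11 libraries (log2 fold change -0.05, 95% interval -0.50 to 0.39, limma adjusted p = 0.928), a value that turned to 0.06 under quantile normalization. Leaving out Shh-Stk11 1 gave 0.18, and leaving out Shh-Stk11 2 gave -0.28. Cnn1 (ENSMUSG00000001349.5, chr9:22099216-22109630), the calponin of differentiated smooth muscle, was at 4.16 and 7.02 FPKM in the Controls, against 4.53 and 4.74 FPKM in the Shh-Stk11 libraries. Control 2 alone was high, and the log2 fold change of -0.22 (95% interval -0.82 to 0.38, limma adjusted p = 0.729) was 0.15 without it and -0.59 without Control 1. The replicates of the Control differed in Cnn1 by 0.74 on the log2 scale, more than in any other of the 10 genes.

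Smtn (ENSMUSG00000020439.17, chr11:3517523-3540612) encodes smoothelin, of contractile smooth muscle cells. It was at 30.0 and 27.9 FPKM in the Controls, against 25.8 and 22.9 FPKM in the Shh-Stk11 libraries. The groups did not overlap, but the log2 fold change of -0.25 (SE 0.13, limma adjusted p = 0.422) did not pass the threshold, and its interval reached from -0.55 to 0.05. Without the length and GC trend it was -0.09 (limma adjusted p = 0.749), and leaving out Shh-Stk11 2 gave -0.16. Lmod1 (ENSMUSG00000048096.7, chr1:135324807-135368065), a leiomodin that nucleates actin filaments, was at 2.2 and 2.0 FPKM in the Controls, against 2.18 and 2.01 FPKM in the Shh-Stk11 libraries. These groups were interleaved, with a fold of 0.998 (95% interval 0.73 to 1.37, limma adjusted p = 0.998). Synpo2 (ENSMUSG00000050315.14, chr3:123076519-123236149), an actin-bundling protein of the Z-disc and of dense bodies, was at 1.94 and 2.25 FPKM in the Controls, against 3.19 and 2.06 FPKM in the Shh-Stk11 libraries. Shh-Stk11 1 alone was high, and the log2 fold change of 0.28 (95% interval -0.31 to 0.88, limma adjusted p = 0.645) was -0.02 without that library and 0.59 without Shh-Stk11 2.

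Des (ENSMUSG00000026208.9, chr1:75360329-75368579), the muscle intermediate filament gene, differed most among the structural genes. It was at 21.8 and 25.7 FPKM in the Controls, against 17.8 and 16.9 FPKM in the Shh-Stk11 libraries. The means were 23.7 ± 2.74 and 17.3 ± 0.616 FPKM (SD, n = 2 libraries each), and the groups did not overlap. The log2 fold change of -0.45 (SE 0.13, 95% interval -0.77 to -0.13) had an unadjusted p of 0.0136 and a limma adjusted p of 0.169, so it did not pass over all genes. After the length and GC trend was removed it was -0.29 (limma adjusted p = 0.346).

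Des is also a gene of heart muscle, and the 18 heart muscle markers followed here varied between libraries. All 18 were detected in at least 1 library, and 12 had a mean of at least 0.5 FPKM. Their summed FPKM was 153 for Control 1, 331 for Control 2, 191 for Shh-Stk11 1 and 76.9 for Shh-Stk11 2, and the defining marker Nkx2-5 did not exceed 0.172 FPKM. Control 2, the highest library for these markers, was also the highest for Des and for Cnn1, and Shh-Stk11 2, the lowest, was also the lowest for Des, Smtn and Myh11. Cnn1 was lowest in Control 1, and Smtn and Myh11 were highest in Control 1 and Shh-Stk11 1. Des was lower in Shh-Stk11 1 (17.8 FPKM) than in Control 1 (21.8 FPKM), whereas the heart sum was higher. Acta2, Tagln and Actg2 were highest in Shh-Stk11 2. The most abundant heart markers, Actc1 and Myl7, were at 73.2 and 108 FPKM in Control 2 and at 22.4 and 17.2 FPKM in Shh-Stk11 2. None of the 12 passed the threshold in limma, none had an unadjusted p under 0.05, and their median log2 fold change was -0.86. The part of this variation in the values of these smooth muscle genes was not tested.

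Myocd (ENSMUSG00000020542.18, chr11:65176561-65269989) encodes the co-activator of SRF. It was at 1.32 and 0.829 FPKM in the Controls, against 1.60 and 1.12 FPKM in the Shh-Stk11 libraries. The groups overlapped, and the replicates of both genotypes differed. The log2 fold change of 0.32 (SE 0.31, 95% interval -0.43 to 1.08, limma adjusted p = 0.68) was the most positive of the 10 and had the widest interval. It was 0.02 without Control 2, 0.09 without Shh-Stk11 1, 0.56 without Shh-Stk11 2 and 0.63 without Control 1, and 0.19 with a pseudocount of 1. The order of the libraries was the reverse of that for Tagln in both genotypes. Replicate 1 was higher than replicate 2 for Myocd, and lower for Tagln, Acta2 and Actg2.

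**Figure D2:**
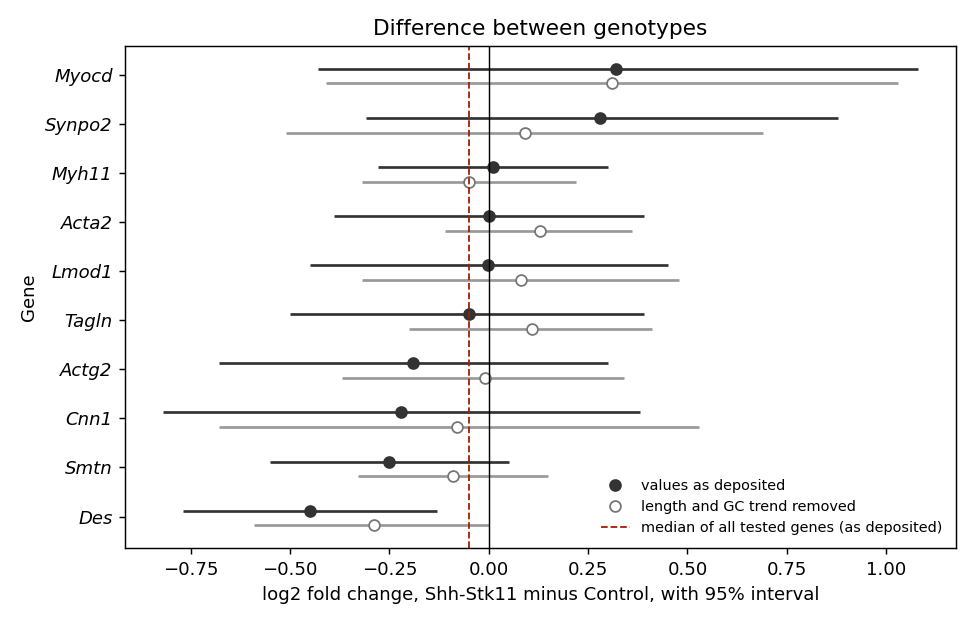
Log2 fold change of each gene, Shh-Stk11 minus Control, with its 95% interval from limma, for the deposited values (filled) and after removal of a trend with transcript length and GC content (open). The dashed line is the median of all tested genes, -0.05, and the interval of the deposited values excludes 0 for Des only, from -0.77 to -0.13.

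The differences between replicates varied with transcript length among these genes. The 4 genes with a longest transcript under 2500 bases (Acta2, Actg2, Tagln and Cnn1) were all higher in replicate 2 than in replicate 1, in both genotypes. The median difference of these 4 was 0.20 on the log2 scale between the Controls and 0.33 between the Shh-Stk11 libraries. Of the 6 longer genes, 4 were lower in Control 2 than in Control 1 (all but Des and Synpo2), and 6 were lower in Shh-Stk11 2 than in Shh-Stk11 1. From the shortest to the longest gene, Shh-Stk11 2 minus Shh-Stk11 1 went from 0.58 for Actg2, with 1333 bases, through -0.14 for Myh11, with 6549 bases, to -0.60 for Synpo2, with 9203 bases. Spearman's correlation with length over the 10 genes was -0.939 for the Shh-Stk11 replicates and -0.394 for the Control replicates. These are descriptions over genes that share their libraries.

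The same relation ran through the whole table. Over 13631 tested genes with an annotated length, this correlation was -0.369 for the Shh-Stk11 replicates, -0.362 for the Control replicates and 0.368 for Shh-Stk11 minus Control. In the tenth of the genes with the shortest transcripts the median difference between the genotypes was -0.19, and in the tenth with the longest it was 0.19. Among the smooth muscle genes, the correlation for the genotype difference was 0.552. With the trend removed, 5 of the 10 genes were below 0, compared with 7 in the deposited values, and the median of the 10 was 0.03. The value of Actg2 went from -0.19 to -0.01 and that of Synpo2 from 0.28 to 0.09. Cnn1 went from -0.22 to -0.08, Tagln from -0.05 to 0.11, and Myocd from 0.32 to 0.31.

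**Figure D3:**
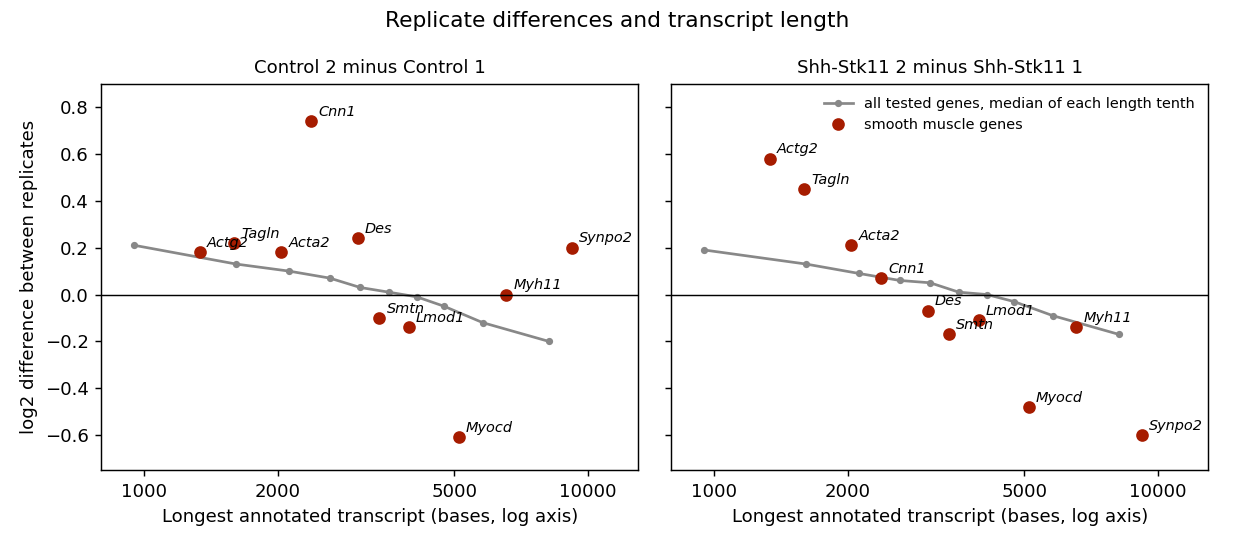
Log2 difference between the replicates of each genotype against the longest annotated transcript (bases, log axis) for the 10 smooth muscle genes, with the medians of all tested genes in 10 length groups. In the Shh-Stk11 libraries the genes run from Actg2, at 0.58, down to Synpo2, at -0.60, and the medians of all genes from 0.19 to -0.17.

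The size of these replicate differences was close to that of other genes. The median absolute log2 difference between replicates was 0.19 over the 10 genes in each genotype, beside 0.18 in the Controls and 0.16 in the Shh-Stk11 libraries over all tested genes. The genes whose profile over the 4 libraries was most like that of Myh11, by the root mean square difference of centred log2 values among 9814 genes, were Eps15l1, Ipo5, Tsc1, Rbm19 and Arv1, at 0.00819 to 0.0128. Of the other smooth muscle genes, Lmod1 was nearest, at 0.0477, and 2.78% of the genes were nearer. Cnn1, at 0.297, was the farthest, and 89.4% were nearer. With 4 libraries and a flat profile, such likeness has little resolution.

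The genes that act with the 10 were then described as groups. Of 28 other contractile and cytoskeletal genes, none passed the threshold in limma, and the median log2 fold change was -0.07. An unadjusted p under 0.05 was found for 5 of the 28 (2 higher, 3 lower), beside 15.2% of all tested genes. The most positive values were those of Nexn (0.52, limma adjusted p = 0.159), an actin-binding protein, and Ppp1r12a (0.43, limma adjusted p = 0.159), the targeting subunit of myosin phosphatase. The most negative were those of the intermediate filament gene Synm (-0.53, limma adjusted p = 0.212) and of Ppp1r14a (-0.50, limma adjusted p = 0.19), which encodes the myosin phosphatase inhibitor CPI-17. Without the length and GC trend, Nexn was at 0.38, Ppp1r12a at 0.16, Synm at -0.65 and Ppp1r14a at -0.23, and the median of the list was -0.01. The pair that switches smooth muscle myosin on, named for its role after the values had been seen, was at 65.9 ± 4.21 and 62.9 ± 2.35 FPKM for the kinase gene Mylk and at 153 ± 14.5 and 147 ± 33.2 FPKM for the light chain gene Myl9 (Control and Shh-Stk11, SD, n = 2 libraries each).

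Of the lists described here, only that for calcium and cyclic nucleotide control of tone held genes past the threshold. Of its 13 tested genes 2 rose, where 0.98% of all tested genes rose, and the median was 0.13, or 0.01 with the trend of length and GC content removed. An unadjusted p under 0.05 was found for 4 of the 13, all higher, beside 8.04% of all tested genes. The other members of these 4, named after their values had been seen, were Itpr1 (0.62, limma adjusted p = 0.102) and Prkg1 (0.51, limma adjusted p = 0.225), at 0.44 and 0.22 with that trend removed. Rock1 and Rock2 encode kinases that inhibit myosin phosphatase and are used by nearly all cell types. Rock2 was at 7.17 and 7.64 FPKM in the Controls, against 16.8 and 13.1 FPKM in the Shh-Stk11 libraries (log2 fold change 0.99, SE 0.16, limma adjusted p = 0.0354). Rock1 was at 5.35 and 4.69 FPKM in the Controls, against 11.1 and 8.71 FPKM in the Shh-Stk11 libraries (log2 fold change 0.96, SE 0.17, limma adjusted p = 0.0455). Each Shh-Stk11 library exceeded each Control in both genes. Both have long transcripts, of 6440 bases for Rock1 and 7644 bases for Rock2, and after removal of the length and GC trend their log2 fold changes were 0.64 (limma adjusted p = 0.13) and 0.68 (limma adjusted p = 0.104). Over 15 alternatives the adjusted p ran from 0.0253 to 0.22 for Rock1, with 3 past the threshold, and from 0.0137 to 0.192 for Rock2, with 7 past it. Rock1 lost the call when any library was left out (adjusted p from 0.0704 without Shh-Stk11 2 to 0.22 without Control 2), with a log2 fold change between 0.79 and 1.14. Rock2 kept it without Shh-Stk11 2 (0.0472) and lost it without Control 1 (0.192), Control 2 (0.166) or Shh-Stk11 1 (0.14), with a log2 fold change between 0.82 and 1.17. With replicate number as a block, the log2 fold changes were again 0.96 and 0.99, and the adjusted p was 0.125 for Rock1 and 0.138 for Rock2.

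The transcription regulators were examined next. The 13 genes of the SRF pathway and of mesenchymal regulation had a median log2 fold change of -0.21, and none passed the threshold in limma. An unadjusted p under 0.05 was found for 4 of the 13, all lower, where 7.18% of all tested genes were lower at this p. Tbx4, a T-box gene of lung mesenchyme, had the most negative value, with 58.2 and 58.1 FPKM in the Controls, against 45.3 and 40.0 FPKM in the Shh-Stk11 libraries (-0.45, limma adjusted p = 0.144), followed by Klf4 (-0.40, limma adjusted p = 0.44), a repressor of smooth muscle genes. Prrx1 (0.30, limma adjusted p = 0.408) and Mef2c (0.15, limma adjusted p = 0.703) had the most positive values. With the length and GC trend removed, Mef2c turned to -0.15, Prrx1 was at 0.09, Klf4 at -0.25 and Tbx4 at -0.31, and the median of the list was -0.11. Meis1, named after its values had been seen, then had the most negative value of the list. It went from -0.31 to -0.59 (limma adjusted p = 0.0747). Srf, the partner of myocardin, was at 18.6 and 17.4 FPKM in the Controls, against 16.3 and 15.2 FPKM in the Shh-Stk11 libraries (-0.19, limma adjusted p = 0.522). Srf was named for its role after its values had been seen. Its own trend-removed log2 fold change was 0.03.

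Signals that pattern airway smooth muscle come from the targeted epithelium as well as from the mesenchyme. Of 20 such genes none passed the threshold in limma, 5 had an unadjusted p under 0.05 (2 higher, 3 lower, beside 15.2% of all tested genes), and the median was -0.04. The most negative value was that of the mesenchymal ligand gene Wnt2, with means of 41.9 ± 0.58 FPKM in the Controls and 26.5 ± 4.69 FPKM in the Shh-Stk11 libraries (SD, n = 2 libraries each; -0.67, limma adjusted p = 0.0869), followed by Fgf9 (-0.48, limma adjusted p = 0.505), an epithelial and mesothelial growth factor. The most positive were those of the transcription factor gene Sox9 (0.72, limma adjusted p = 0.238), which marks distal epithelial tips and cartilage, and of Gli3 (0.43, limma adjusted p = 0.46), a mediator of hedgehog signaling. Sox9 was at 6.35 and 7.03 FPKM in the Controls, against 14.5 FPKM in Shh-Stk11 1 and 8.45 FPKM in Shh-Stk11 2. Without the length and GC trend, Wnt2 was at -0.52, Fgf9 at -0.60, Sox9 at 0.76 and Gli3 at 0.27. The median of the list was then 0.01. Shh itself, chosen after its values had been seen, was at 25.6 ± 1.19 FPKM in the Controls, against 28.1 ± 1.73 FPKM in the Shh-Stk11 libraries (SD, n = 2 libraries each; 0.13, limma adjusted p = 0.658), and at 0.28 on the log2 scale without the trend (limma adjusted p = 0.254).

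Markers of the types of smooth muscle and of their neighbours gave no call either. Of 14 vascular smooth muscle and pericyte markers none passed the threshold in limma, 3 had an unadjusted p under 0.05 (1 higher, 2 lower), and the median was -0.10. They ranged from -0.48 for Ndufa4l2 and -0.46 for Cox4i2 (limma adjusted p = 0.232 and 0.264) to 0.17 for Rgs5 and 0.60 for Abcc9 (limma adjusted p = 0.715 and 0.159). Without the length and GC trend, these 4 were at -0.22, -0.18, 0.02 and 0.43, and the median of the list was -0.06. Of the 8 markers of airway smooth muscle and myofibroblasts 7 were tested, with no call, a median of -0.01 and 3 unadjusted p-values under 0.05 (1 higher, 2 lower). Over all tested genes that share was 15.2%. Hhip, a hedgehog-binding target gene, had the most positive value (0.63, limma adjusted p = 0.0953, on a transcript of 9074 bases), followed by Stc1 (0.26, limma adjusted p = 0.588). Fgf18 (-0.40, limma adjusted p = 0.187) and Pdgfra (-0.38, limma adjusted p = 0.201), genes of myofibroblast precursors, had the most negative values. Without the length and GC trend, Hhip was at 0.26 (limma adjusted p = 0.405), Stc1 at 0.16, Fgf18 at -0.19 and Pdgfra at -0.49, and the median of the list was 0.03.

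**Figure D4:**
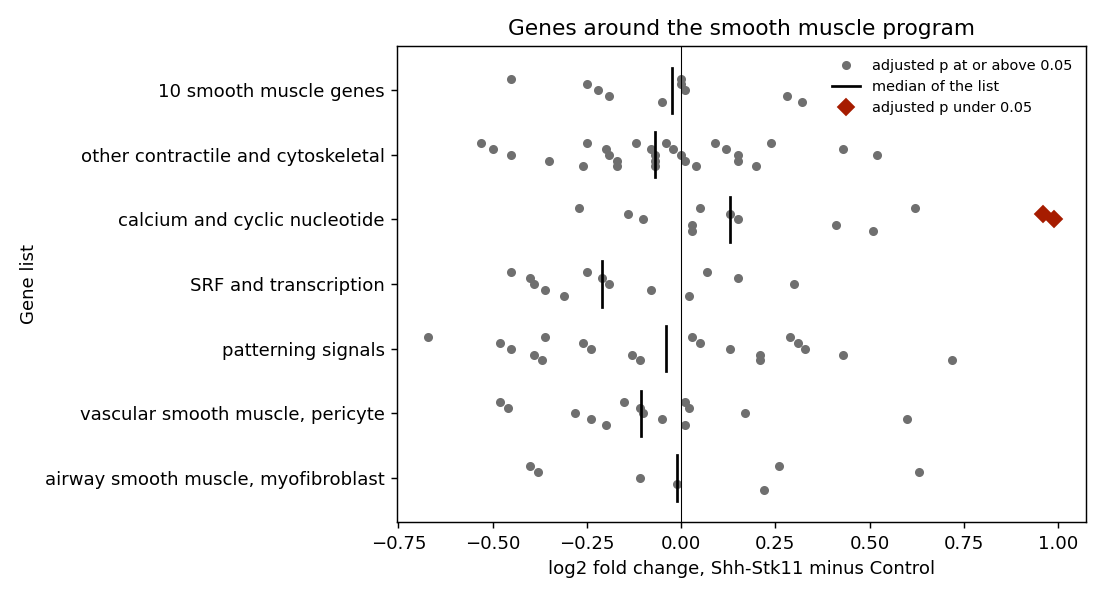
Log2 fold change, Shh-Stk11 minus Control, of every tested gene in the 7 lists around the smooth muscle program, with the median of each list as a bar and genes past an adjusted p of 0.05 in limma as diamonds. Rock2, at 0.99, and Rock1, at 0.96, are the only diamonds.

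The other cell types of the lysate were measured beside these genes. The summed level of the 10 smooth muscle genes lay between 465 and 554 FPKM, with the lowest value in Shh-Stk11 1 and the highest in Control 2. Most of the sum was Acta2 and Tagln. As a share of all deposited FPKM, the sum was 0.0847% and 0.0882% in the Controls, and 0.0903% and 0.096% in the Shh-Stk11 libraries. The 11 endothelial markers summed to 1090 and 1000 FPKM in the Controls and to 765 and 819 FPKM in the Shh-Stk11 libraries, and Pecam1 and Ramp2 were the most abundant. The 12 fibroblast and mesenchyme markers, led by Vim and Tcf21, summed to 2480 and 2230 FPKM in the Controls and to 1830 and 2000 FPKM in the Shh-Stk11 libraries. The 8 epithelial markers, led by Krt18 and Nkx2-1, summed to 813 and 849 FPKM in the Controls and to 938 and 1030 FPKM in the Shh-Stk11 libraries. No gene of these 3 lists passed the threshold in limma, which 2.27% of all tested genes did. An unadjusted p under 0.05 was found for 6 of 11 endothelial genes, all 6 with lower values in Shh-Stk11. It was found for 1 of 12 fibroblast genes, also lower, and for 2 of 8 epithelial genes, both higher. Over all tested genes that share was 15.2% (8.04% higher and 7.18% lower). All 11 endothelial genes lay below 0, with a median of -0.38, and all 8 epithelial genes above 0, with a median of 0.21. Without the length and GC trend these medians were -0.26 and 0.37.

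Further lists covered cartilage, skeletal muscle, mesothelium, red blood cells and immune cells. The 11 cartilage markers, of the tracheal and bronchial rings, summed to between 49.8 and 59.5 FPKM, most of it Matn4 and Hapln1, while the defining marker Acan did not exceed 0.086 FPKM. Of the cartilage collagen genes, Col2a1, Col9a1, Col9a3 and Col11a2 were highest in Shh-Stk11 1, and Col9a2 was highest in Control 2. The 11 skeletal muscle markers, led by Mylpf and Ckm, summed to between 15.6 and 27.9 FPKM, and Myod1 was listed at 0 in all libraries. The 4 mesothelial markers in the table, led by Msln and Upk3b, summed to 92.8 and 75.5 FPKM in the Controls and to 44.2 and 59.0 FPKM in the Shh-Stk11 libraries. The 8 red blood cell markers, led by Hba-a1 and Hbb-b1, summed to 5680 and 5870 FPKM in the Controls and to 3810 and 4180 FPKM in the Shh-Stk11 libraries. The 7 immune cell markers, led by Lyz2 and Tyrobp, summed to between 260 and 497 FPKM. No gene of these lists passed the threshold in limma, which 2.27% of all tested genes did. An unadjusted p under 0.05 was found for 3 of 6 tested red blood cell genes and 2 of 4 mesothelial genes, all lower. It was found for 1 of 7 immune cell genes, higher, and for no cartilage or skeletal muscle gene. Over all tested genes the shares were 8.04% higher and 7.18% lower. The median log2 fold change was -0.52 for red blood cells, with 6 of 6 genes below 0, and -0.33 for mesothelium, or -0.44 and -0.20 without the length and GC trend. Acan, Nkx2-5 and the cartilage collagen genes were named after their values had been seen. The part of these shifts in the smooth muscle values was not tested.

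**Figure D5:**
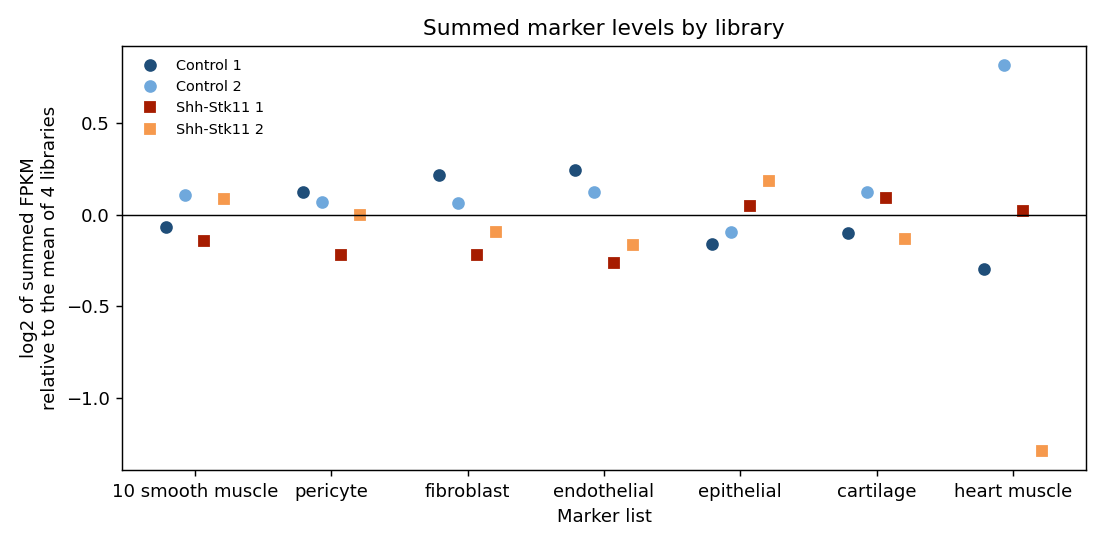
Log2 of the summed FPKM of 7 marker lists in each library, relative to the mean of the 4 libraries. The smooth muscle sum, between 465 and 554 FPKM, varies little beside the heart muscle sum, which runs from 76.9 FPKM in Shh-Stk11 2 to 331 FPKM in Control 2.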

How the data were processed

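Whole E16.5 lungs were profiled by RNA sequencing (single-end 50-base reads, HiSeq 2500) in 2 Control and 2 Shh-Stk11 libraries. The authors deposited FPKM values per gene and library. Per the labels, the submitters' processing notes name TopHat2 2.0.13 and Cufflinks 2.2.1, with no role, and the builds GRCm38 and mm9. Gene positions are those of GENCODE M21 (GRCm38). Symbols matched that annotation directly for 20242 genes and through RefSeq synonyms for 1904 of 22556.

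FPKM values are not counts, so limma 3.58.1 (R 4.3.3) was fitted to log2(FPKM + 0.1) with genotype as the only term and a trended variance, over the 13770 genes whose mean reached 0.5 FPKM. Tests were two-sided, with Benjamini-Hochberg adjustment over all genes tested. Fold changes on this scale are understated for low genes. For 2 against 2 libraries the smallest p of an exact permutation test is 0.333. The script was tested on simulated data.

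Of 1806 genes with all values between 0 and 0.3 FPKM, 74.8% had values that were whole multiples of a common step, within 0.05 of a step. Depth was read from these steps, with a fragment length of 200 bases assumed.

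The members and lists were chosen with earlier results of these data known. By rule, the text names all 10 members, list genes past the threshold or otherwise the 2 most positive and negative, the 2 most abundant markers of other cell types and defining markers at 0, Stk11, and the 5 genes nearest to Myh11 above 5 FPKM. The alternatives were other pseudocounts, filters, scalings and variance settings, removal of a trend with length and GC content, replicate number as a block, and leaving out each library. Protein sequences were not used here.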

Additional observations from a re-analysis of the deposited data

How the results depend on the processing

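None of the 10 genes passed the threshold in any of the 15 alternatives (limma; with a filter of 5 FPKM, Synpo2, Lmod1 and Myocd were not tested). Des came nearest, between -0.57 and -0.29, with an adjusted p between 0.126 and 0.438. The median of the 10 was -0.19 with a filter of 5 FPKM, which leaves 7 genes, and lay between -0.13 and 0.01 when each library was left out. The number of genes past the threshold, 313 of all tested, was 200 with a filter of 5 FPKM, 61 without a filter and 191 after removal of the length and GC trend. It was between 38 and 191 when each library was left out, where the lone sample is assumed to vary like the others. With replicate number as a block it was 13. The labels tie replicate numbers to no litter, batch or day, and same-numbered libraries deviated from their group means with a correlation of -0.114 across genes. The crossed pairing, added after the data were seen, gave 675 genes and no call among the 10. Signs turned for Tagln with quantile normalization (0.06), for Myh11 (-0.05) and Tagln (0.11) with the trend removed, and when a library was left out for Tagln (-0.28 to 0.18), Cnn1 (-0.59 to 0.15), Actg2 (-0.48 to 0.10), Myh11 (-0.06 to 0.08) and Synpo2 (-0.02 to 0.59). Myocd kept its sign but lay between 0.02 and 0.63 when a library was left out. Acta2 and Lmod1, at 0 to 2 decimals, ranged from -0.10 to 0.13 and from -0.07 to 0.08. The cause of these changes was not tested. Scaling by the median ratio moved the median of all genes by 0.04. With 2 libraries per genotype, the interval printed for each gene gives the differences that these data do not exclude.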
